A study of Homo sapiens with 8 samples.

Results

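The 2 culture trials of an RNA-seq study of MCF10A cells were compared with each other: the 4 libraries of replicate 2 against the 4 libraries of replicate 1, paired within each hydrogel. All 8 libraries of the series were members, and they were chosen by the replicate number in their titles alone. MCF10A is a spontaneously immortalized, nontransformed human mammary epithelial cell line with a basal character. Cells were kept for 7 days inside 1 of 4 gels, with 2 libraries per gel. The IPNs were networks of alginate and reconstituted basement membrane (rBM), either soft (softIPN) or made stiff with calcium (stiffIPN). The collagen gels were soft collagen-1 mixed with rBM (softcolrBM, here soft col:rBM) and stiff collagen-1 (stiffcol, here stiff col). No gene was altered and no agent was added. All samples carry the same passage range in their labels, which do not say what same-numbered libraries share, while the methods speak of independent experiments. Passage, lot of matrix or serum, day of harvest and RNA preparation therefore cannot be told apart from the replicate number. The libraries were sequenced in a single lane, and with 4 pairs the p-values measure only the spread between these samples.

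In such a culture the state of the cells is set by more than the gel. The medium holds serum, EGF, insulin, hydrocortisone and cholera toxin, and proliferation falls as acini mature. Growth factors and amino acids feed into a small set of well known programs: E2F factors drive the genes of DNA replication at the entry to S phase, ATF4 drives genes of amino acid synthesis and uptake when amino acids are short, and FOXO factors drive genes of fasting that insulin switches off. Glucocorticoids act through their receptor on a further set. Basal mammary cells are known by their keratins, integrins and laminins, which attach them to the basement membrane.

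Of 13369 genes with at least 10 normalized counts in at least 2 libraries, 3619 were called different between trials at an adjusted p under 0.05 (27.1% of genes tested, limma's paired test on log2(normalized count + 1) with 3 residual degrees of freedom). Of these, 1693 were higher (12.7%) and 1926 lower (14.4%) in replicate 2. At an unadjusted p under 0.05 there were 5518 genes (41.3%). The change had 1 sign in all 4 gels in 3404 of the 3619, against 44.5% of all genes tested, and was 2-fold or more in 923. The 4 values of replicate 1 and the 4 of replicate 2 did not overlap in 2067 of the called genes, while 19.8% of all genes tested had no overlap. The call itself favors changes that are alike in the 4 gels. These counts therefore describe the called genes and are not a test of the calls. The median change over all genes was -0.01 on the log2 scale, and the lower and upper quartiles were -0.31 and 0.30. The median gene owed 29.5% of its sum of squares over the 8 libraries to the trial, and the median for the gel was 39.1%, and the trial's share was larger than that of the gels in 5755 genes (43%). An exact sign-flip test of a single gene over 4 gels cannot give a two-sided p below 0.125, so the calls rest on limma's spread pooled over genes.

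The stiff IPN pair followed the others least closely. Changes in this gel correlated across genes with those of the other gels at r between 0.28 and 0.40, while the other 3 gels correlated with each other at r between 0.65 and 0.82 (genes are not independent replicates, and these are descriptions). In a contrast added after this was seen, the trial change of each gel was set against that of the other 3. The single gel is 1 pair, so its spread is assumed to be that of the others. Here limma called 610 genes for the stiff IPN (4.56% of genes tested) and 0 for any of the others (at an unadjusted p under 0.05, 3468 genes for the stiff IPN, or 25.9%, 495 for the soft IPN or 3.7%, 80 for the soft col:rBM gel or 0.598% and 118 for the stiff col gel or 0.883%). Without the stiff IPN pair, 5833 genes were called between trials (43.6%), 2827 higher (21.1%) and 3006 lower (22.5%). Without the soft IPN, soft col:rBM or stiff col pair, 1616, 1215 and 1219 genes were called. The count of 610 was 0 without the trend and robust moderation. Between collagen gels and IPNs 0 genes had a different trial change at an adjusted p under 0.05, with 1564 at an unadjusted p under 0.05 (11.7%), and between stiff and soft gels the counts were 0 and 314 (2.35%). Counts without this pair are to be read beside the 21.1% higher and 22.5% lower of all genes in that fit.

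The libraries held between 13065376 and 18589590 counted reads, as estimated from the steps between their values, and 3 reads corresponded to between 2.41 and 3.73 normalized counts. These estimates are below the depth in postfiltered reads that the paper gives. The reads were paired, and whether a count stands for a read or a pair was not tested. The shallowest library was stiff IPN replicate 2. In bulk RNA, fewer cells of a type and less RNA per cell cannot be told apart. Basal epithelial markers were present in every library, with all 13 tested and a summed level of 249094 to 354280 normalized counts in replicate 1 and 218058 to 325578 in replicate 2. PTPRC (immune), COL1A2 and THY1 (fibroblast) and CLDN5 (endothelial) were at 0 in every library, but other members of these lists were not. The 12 fibroblast markers summed to 2328 to 2997 normalized counts in replicate 1 and 1680 to 2398 in replicate 2. Of these, 5 were tested, with 2 called lower (40%, beside 14.4% of all genes) and 0 higher. The 10 endothelial markers summed to 115 to 456 and 48 to 256. Of these, 3 were tested, with KDR called lower (-2.20, adjusted p = 0.00275, limma) and 0 called higher.

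**Figure D1:**
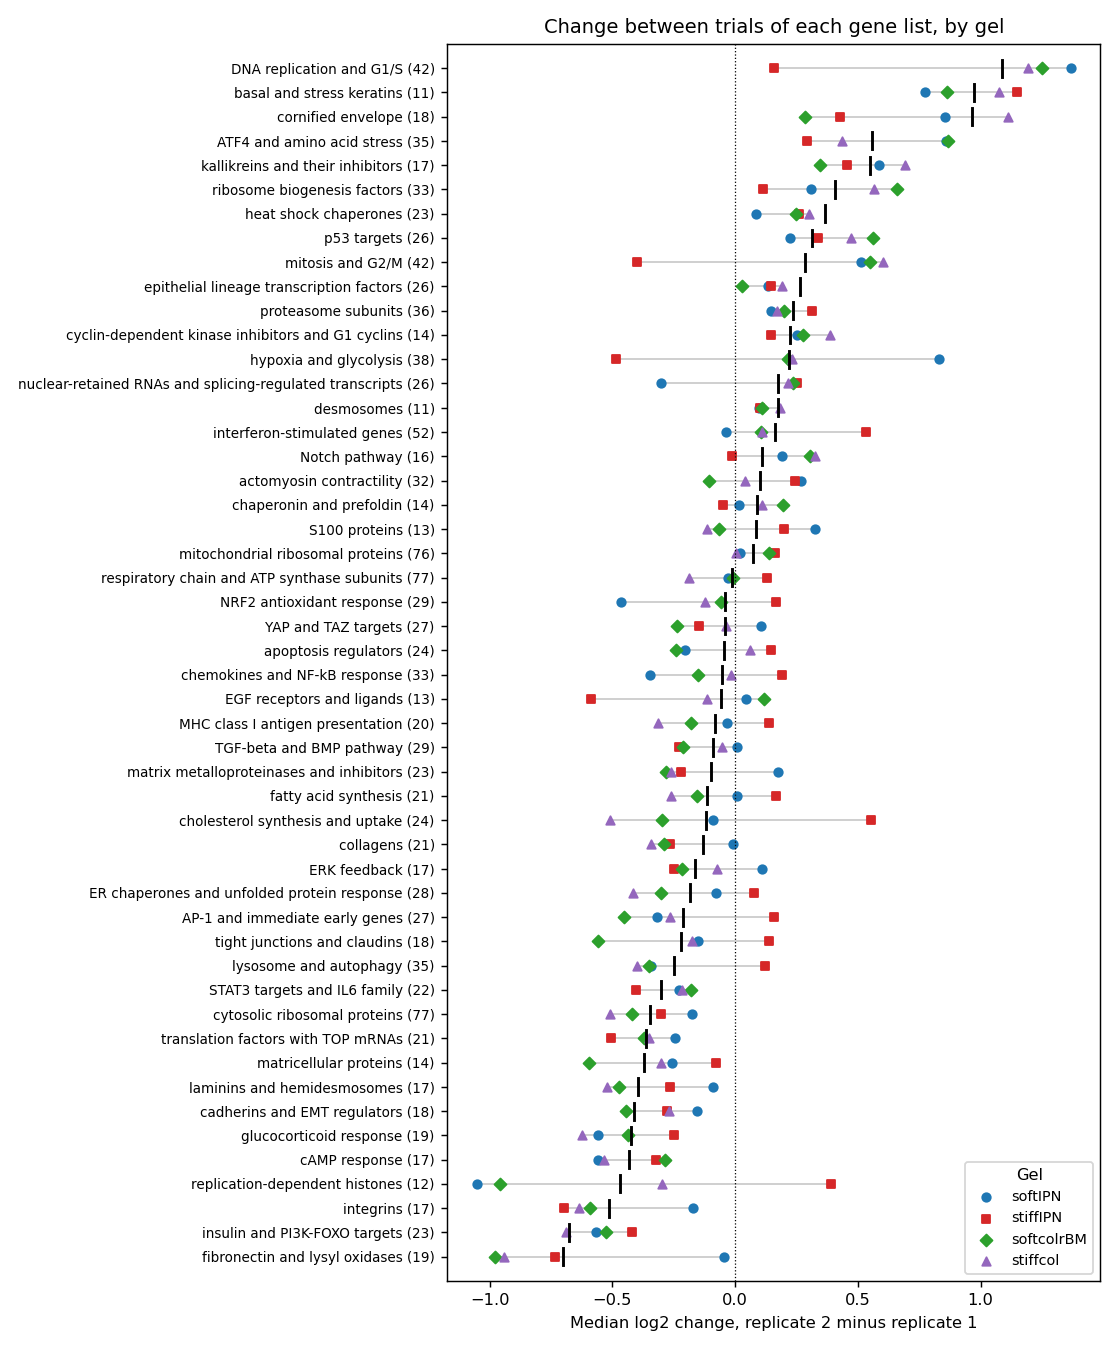
Median log2 change from replicate 1 to replicate 2 of each gene list with at least 10 tested genes (number in brackets), for each of the 4 gels (symbols), with the median of the changes averaged over gels as a black bar. Genes of DNA replication lie at the top with a median of 1.09 and fibronectin and lysyl oxidase genes at the bottom with -0.70. The stiff IPN (squares) lies apart from the other gels for the DNA replication and mitosis lists.

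Most DNA replication genes were higher in replicate 2. Of 42 listed and tested genes of replication and the G1/S transition, 33 were called higher (78.6%, beside 12.7% of all genes) and 0 lower. Their median log2 change was 1.09. The median was 0.16 in the stiff IPN, 1.37 in the soft IPN and 1.25 and 1.19 in the soft col:rBM and stiff col gels. The change of 17 of the 42 was called different in the stiff IPN from that in the other gels, as for 4.56% of all genes tested. In 28 of them the values of the trials did not overlap, as in 9.75% of all genes tested in this direction. Without the stiff IPN pair 38 were called higher and the median was 1.36. Replication-dependent histones, most of whose mRNAs lack a poly(A) tail, did not share this. Of 12 tested, 0 were called higher and 3 lower (25%, beside 14.4% of all genes), and 7 were called lower without the stiff IPN pair. Their median was -0.47 (0.15 with no filter on low values). The linker histone HIST1H1C went from 524, 336, 486 and 302 normalized counts to 177, 341, 122 and 92, level in the stiff IPN alone (-1.31, standard error 0.30, adjusted p = 0.0174, up to 0.0953 with 1 gel left out).

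Most of the listed genes are known E2F targets, and their promoters are shown because the genes moved together. Of 37 members with a promoter in the RefSeq table (GRCh38.p14, 250 bases before to 50 after the start), 18 held TTTCCCGC or TTTGGCGC, the core of E2F sites, on either strand (48.6%), against 631 of all 27195 promoters (2.32%). Among the 28 matched members called higher, 16 held it (57.1%). This is a description of the letters in this window. Stretches of 30 bases before the start follow, 5′ to 3′ on the strand of the gene, with the matching letters in capitals. E2F1 (chr20:33686387-33686416, minus strand) and E2F2 (chr1:23531257-23531286, minus strand) are themselves factors of this family, PCNA is the sliding clamp of the polymerases (chr20:5126663-5126692, minus strand), and MCM6 is a subunit of the replicative helicase, with matches beginning 152 and 90 bases before its start (chr2:135876577-135876606 and chr2:135876515-135876544, minus strand).
E2F1: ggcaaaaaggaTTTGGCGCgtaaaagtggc
E2F2: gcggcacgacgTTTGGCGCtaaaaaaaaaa
PCNA: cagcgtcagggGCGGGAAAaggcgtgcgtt
MCM6, distal: agggctttgcaTTTGGCGCgaaatcccttt
MCM6, proximal: cattggtcaggTTTGGCGCgaaatctccag

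Where 4 values follow each other, they stand for the soft and stiff IPN and then the soft col:rBM and stiff col gel. E2F2 (hg19 chromosome 1, 23832930 to 23857725) stood at 9, 32, 6 and 4 normalized counts in replicate 1 and 64, 77, 45 and 33 in replicate 2. The lowest library of replicate 2 was just above the highest of replicate 1, and the log2 change was 2.36 (standard error 0.33, adjusted p = 0.00427). MCM10, an initiation factor, rose from 48, 137, 48 and 31 to 239, 186, 255 and 263, a change of 2.04 (0.37, adjusted p = 0.00852). PCNA rose from 692, 1296, 723 and 709 to 1612, 1668, 1979 and 2162, a change of 1.16 (0.19, adjusted p = 0.00645). In both genes the stiff IPN started highest among the replicate 1 libraries and moved least. TYMS, the enzyme of thymidylate synthesis, rose by 1.15 (adjusted p = 0.00899), and the helicase subunit MCM3 by 1.18 (adjusted p = 0.00905). CDT1, the licensing factor, whose promoter also holds an E2F match, was not called (-0.17, adjusted p = 0.342). The part of E2F factors in these changes was not tested. When each gel was left out in turn, E2F2, PCNA, E2F1, CDC6, UHRF1 and FEN1 kept their calls. MCM10, MCM3 and TYMS lost theirs without the soft IPN pair (adjusted p = 0.0585, 0.0631 and 0.0607).

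Over the 4 gels, genes of mitosis were called about as often as all genes. Of 42 tested, 6 were called higher (14.3%, against 12.7% of all genes) and 0 lower, with a median of 0.28. The median was -0.40 in the stiff IPN and between 0.51 and 0.60 in each other gel. The trial change of 26 of the 42 was called different in the stiff IPN, beside 4.56% of all genes tested. Without that pair, 37 of the 42 were called higher, beside 21.1% of all genes. MKI67, the proliferation antigen, had 1166, 1827, 1209 and 1084 normalized counts in replicate 1 and 3097, 1416, 2826 and 2488 in replicate 2. It was higher in replicate 2 in each gel but the stiff IPN (log2 change 0.87, standard error 0.27, adjusted p = 0.0454). The mitotic factor FOXM1 rose by 1.02 (adjusted p = 0.0158), while the kinase PLK1 and the cyclin CCNB1 were not called (0.60 and 0.28, adjusted p = 0.0695 and 0.19). Both were called without the stiff IPN pair, with changes of 0.91 and 0.47. MKI67, FOXM1 and the kinesin KIF23 were no longer called when any other pair was left out (highest adjusted p = 0.21, 0.0823 and 0.157). Among brakes of the cycle, RBL2, a pocket protein of resting cells, fell by 0.80 on the log2 scale (adjusted p = 0.00354), and its relative RBL1, itself an E2F target, rose by 1.31 (adjusted p = 0.015). CDKN1C, a kinase inhibitor, fell by 1.09 (adjusted p = 0.0342). The calls of RBL1 and CDKN1C rested on all 3 gels other than the stiff IPN (adjusted p up to 0.0856 and 0.16 when 1 of them was left out).

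**Figure D2:**
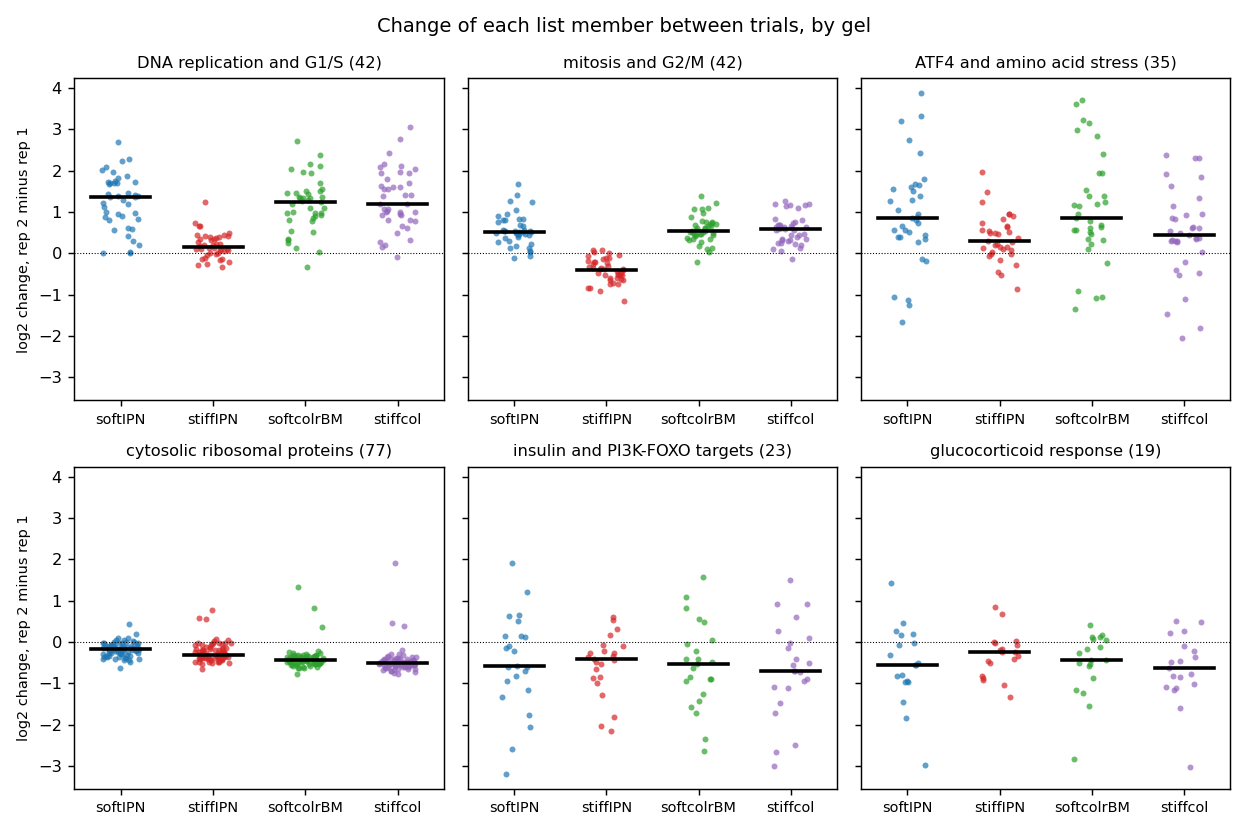
Log2 change from replicate 1 to replicate 2 of every tested member of 6 lists (points), by gel, with the list's median in that gel as a bar. Replication and mitosis genes sit near or below 0 in the stiff IPN and mostly above 0 in the other gels, while most ribosomal protein genes lie close together below 0 (medians -0.17 to -0.51), with RPS10 above.

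Genes of the amino acid response that ATF4 controls were also higher in replicate 2. Of 35 tested, 22 were called higher (62.9%, beside 12.7% of all genes) and 2 lower, with a median change of 0.56, and the change of 22 was positive in all 4 gels (21.4% of all genes). The median was positive in each gel, from 0.29 in stiff IPNs to 0.87 in soft col:rBM gels. Leaving out the stiff IPN pair gave 27 higher and 4 lower. The 5 largest changes were in STC2, CHAC1, PSAT1, ASNS and PHGDH. Of 27 members with a promoter in the table, 7 held TGATGNAA, the letters of the C/EBP-ATF response element, on either strand (25.9%), against 999 of 27195 (3.67%). They were CHAC1, ASNS, SLC3A2, SLC7A1 and NARS, which were called higher, and AARS and ATF3, which were not called. Among the 18 matched members called higher, 5 held the letters (27.8%), a share close to the 25.9% of all matched members. The list was written as one of genes under ATF4, so these shares describe the letters and are not a test. SLC7A1 and NARS were not called without any 1 of the 3 gels other than the stiff IPN (adjusted p up to 0.128 and 0.117). The stretch of ASNS, which encodes asparagine synthetase, begins its match 68 bases before the start (chr7:97872458-97872487, minus strand). That of CHAC1, which encodes an enzyme that degrades glutathione, begins 209 bases before (chr15:40953251-40953280, plus strand). AARS, the alanyl-tRNA synthetase, is shown for contrast (chr16:70289675-70289704, minus strand).
ASNS: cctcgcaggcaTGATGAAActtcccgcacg
CHAC1: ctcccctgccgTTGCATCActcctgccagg
AARS: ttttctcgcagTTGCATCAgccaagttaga

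ASNS (hg19 chromosome 7, 97480989 to 97501854) stood at 298, 585, 293 and 593 normalized counts in replicate 1 and 1995, 1389, 2601 and 2148 in replicate 2. Each library of replicate 2 lay above all those of replicate 1, and the log2 change was 2.25 (standard error 0.28, adjusted p = 0.00289). PSAT1 (chromosome 9, 80912041 to 80945009), an enzyme of serine synthesis, rose from 660, 1043, 392 and 825 to 3563, 2006, 4787 and 4289, a change of 2.34 (0.34, adjusted p = 0.00473). CHAC1 rose from 15, 64, 32 and 118 to 234, 182, 308 and 224, a change of 2.38 (0.45, adjusted p = 0.00961). The secreted glycoprotein STC2 rose from 466, 824, 264 and 728 to 4277, 1368, 3445 and 2763 (2.39, standard error 0.42, adjusted p = 0.0074). In PSAT1 and STC2 the rise was smallest in the stiff IPN. AARS, with 2195, 2008, 2281 and 3044 normalized counts in replicate 1 and 3123, 1799, 3156 and 2636 in replicate 2, was not called (0.15, adjusted p = 0.471). PHGDH, the first enzyme of serine synthesis, rose by 2.04 (adjusted p = 0.0125) and PSPH, the last, by 1.39 (adjusted p = 0.00454). SLC6A9, a glycine transporter that was not on the list, rose by 2.07 (adjusted p = 0.00182), the cystine transporter SLC7A11 by 1.97 (adjusted p = 0.0039), and the leucine transporter SLC7A5 and its partner SLC3A2 by 1.76 and 0.96 (adjusted p = 0.00488 and 0.00467).

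The mRNA of ATF4 itself was not called (12568, 10467, 11815 and 11806 normalized counts in replicate 1, 11006, 11164, 10129 and 8169 in replicate 2, change -0.21, adjusted p = 0.225). ATF4 is known to be controlled mainly by translation, but its protein was not measured here. The part of ATF4 in the changes of this list was not tested. Stress factors on the list went in both directions. TRIB3, a pseudokinase that binds ATF4, rose by 1.05 (adjusted p = 0.00783) and was called without each gel. CEBPB fell by 0.78 on the log2 scale (adjusted p = 0.0291) and CTH, an enzyme of cysteine synthesis, by 1.12 (adjusted p = 0.0227). DDIT3, the proapoptotic factor CHOP, had 336, 199, 363 and 558 normalized counts in replicate 1 and 161, 276, 193 and 158 in replicate 2, lower in each gel but the stiff IPN, and was not called (-0.83, adjusted p = 0.0835). ATF3 went from 89, 96, 78 and 132 to 37, 377, 30 and 31, also higher only in the stiff IPN (-0.67, adjusted p = 0.406). Without the stiff IPN pair both were called, at -1.26 and -1.55. The calls of ASNS, SLC6A9, SLC7A11, SLC7A5, SLC3A2 and PSPH held when each gel was left out in turn. PSAT1 was not called without the stiff col pair (adjusted p = 0.0689), nor CHAC1 without the soft IPN or soft col:rBM pair (up to 0.0527), nor STC2 without any 1 of 3 gels (up to 0.0959). PHGDH, CEBPB and CTH were not called without any 1 of the 3 gels other than the stiff IPN (adjusted p up to 0.162, 0.14 and 0.103). Of 28 genes of the ER stress response, 0 were called higher and 6 lower (21.4%, beside 14.4% of all genes), with a median of -0.18. Without the stiff IPN pair 1 was higher and 11 lower, with a median of -0.27.

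**Figure D3:**
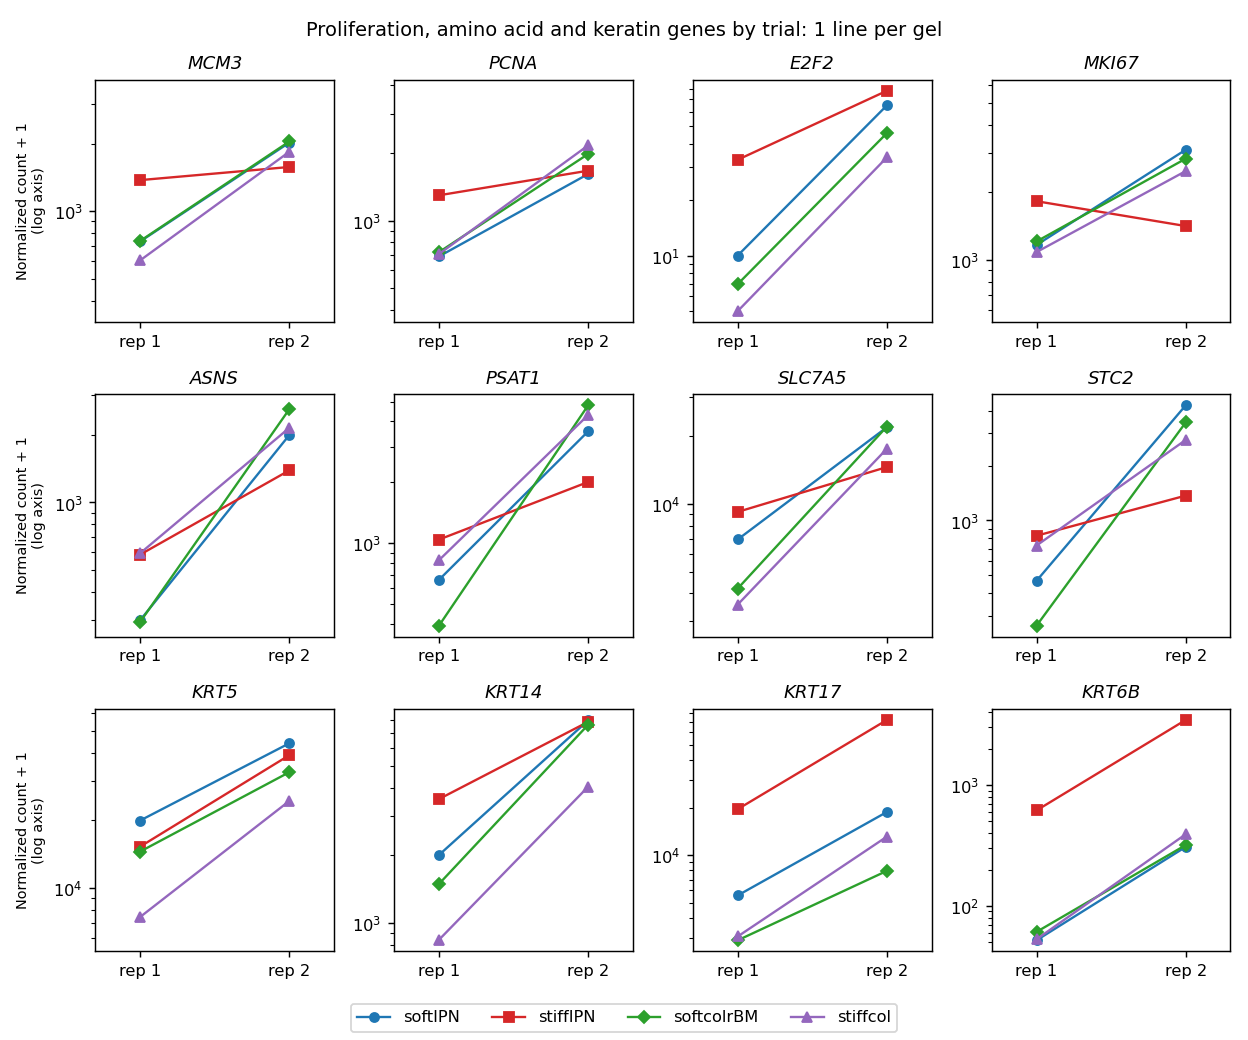
Normalized counts plus 1 (log axis) in replicate 1 and replicate 2 of 12 genes of proliferation, amino acid metabolism and basal and stress keratins, with 1 line per gel. Lines rise in each gel for every gene but MKI67, which fell in the stiff IPN from 1827 to 1416.

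Factors that build ribosomes and the ribosomal proteins themselves went in opposite directions. Of 33 ribosome biogenesis genes, 14 were called higher (42.4%, beside 12.7% of all genes) and 0 lower, with a median of 0.41. The median was 0.18 in the IPNs alone and 0.67 in the collagen gels alone, and 22 were called higher without the stiff IPN pair. NOP56, a core protein of the particles that methylate ribosomal RNA, had 1868, 2268, 1495 and 1412 normalized counts in replicate 1 and 3487, 3872, 3700 and 3622 in replicate 2. Its trials were well apart, with a log2 change of 1.08 (standard error 0.13, adjusted p = 0.00246). RRS1 rose by 1.01 (adjusted p = 0.00941). Of 77 cytosolic ribosomal protein genes, 34 were called lower (44.2%, beside 14.4% of all genes) and 1 higher, with a median of -0.35 and medians between -0.17 and -0.51 in single gels. In 63 of them the sign was negative in all 4 gels, as in 23.1% of all genes. In 0 of the 77 did all replicate 2 values lie below all replicate 1 values, against 10% of all genes. Without the stiff IPN pair 42 were called lower. The changes were small: RPS2 went from 83944, 46179, 73752 and 71890 to 78585, 34237, 51340 and 48645 (-0.40, standard error 0.12, adjusted p = 0.0411), and the values of the trials overlapped. The 1 exception was RPS10, at 1.12 (adjusted p = 0.0202, up to 0.0911 without the soft col:rBM or stiff col pair) and at most 109 normalized counts. Translation factors whose mRNAs carry the same TOP motif as those of ribosomal proteins included 11 of 21 called lower (52.4%) and 0 higher, with a median of -0.36, and 7 were called lower without the stiff IPN pair. EIF4B, a cofactor of the cap-binding helicase, fell by 0.83 on the log2 scale (adjusted p = 0.00432) and EIF3E by 0.68 (adjusted p = 0.00582). RPS2 was called only without the soft IPN pair among the 4 fits that left out a gel (adjusted p up to 0.208), while EIF4B, EIF3E, NOP56 and RRS1 were. As the multimapped reads were removed and ribosomal proteins have many processed copies, their levels are uncertain.

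Genes of the insulin pathway and targets of FOXO factors, which insulin represses, were lower in replicate 2. Of 23 tested, 10 were called lower (43.5%, beside 14.4% of all genes) and 2 higher (8.7%, beside 12.7%). Without the stiff IPN pair 13 were lower and 4 higher, beside 22.5% and 21.1% of all genes in that fit. The median was -0.68, with medians from -0.42 to -0.69 in single gels. PDK4 (hg19 chromosome 7, 95212811 to 95225828), a kinase that spares glucose by shutting off pyruvate dehydrogenase, stood at 732, 569, 601 and 751 normalized counts in replicate 1 and 79, 160, 96 and 93 in replicate 2. The trials were far apart in each gel, with a log2 change of -2.66 (standard error 0.22, adjusted p = 0.00122). TXNIP, an inhibitor of glucose uptake that is induced by glucose and by FOXO, went from 46372, 14227, 47108 and 37280 to 11124, 3225, 9314 and 6628. Each library of replicate 2 lay below all those of replicate 1, and the change was -2.26 (standard error 0.11, adjusted p = 0.000237). Of 21 members with a promoter in the table, 2 held the FOXO letters GTAAACAA on either strand (9.52%), TXNIP and TRIB2, against 257 of 27195 (0.945%). TXNIP was the 1 of 9 matched members called lower that held them, and TRIB2 the 1 of 2 called higher. The stretch of TXNIP begins its match 124 bases before the start (GRCh38.p14, chr1:145996685-145996714, minus strand), and is shown as that of the member with the most regular fall.
TXNIP: tcgggctcctgGTAAACAAggaccgggcag

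Other members of the pathway moved less. The insulin receptor INSR fell by 0.68 on the log2 scale (adjusted p = 0.00917), its substrate IRS2 by 0.75 (adjusted p = 0.0092) and FOXO3 by 0.69 (adjusted p = 0.00678). FOXO1 was not called (-0.31, adjusted p = 0.0787). TRIB2 and SESN3 rose, by 0.83 and 0.79 (adjusted p = 0.0344 and 0.0262). FBXO32, the ubiquitin ligase atrogin-1, which is a classical FOXO target but was not on the list, went from 1558, 562, 875 and 1390 to 97, 346, 75 and 164 (-2.82, standard error 0.46, adjusted p = 0.00619). Its fall was smaller in the stiff IPN than in the other gels, by 2.83 (adjusted p = 0.0106), and it was not called without the soft col:rBM or the stiff col pair (adjusted p up to 0.144). PDK4, TXNIP, FOXO3 and IRS2 kept their calls without each gel, INSR lost its call without the stiff col pair (adjusted p = 0.0537), and TRIB2 and SESN3 lost theirs without any 1 of 3 gels (adjusted p up to 0.17 and 0.115).

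Glucocorticoid response genes were lower as well, in part. Of 19 tested, 7 were called lower (36.8%, beside 14.4% of all genes) and 0 higher, with a median of -0.42. Without the stiff IPN pair 11 were lower and 1 higher. TSC22D3, which encodes the glucocorticoid-induced leucine zipper, had 13584, 2392, 11558 and 13259 normalized counts in replicate 1 and 1737, 2280, 1615 and 1635 in replicate 2. It was thus high in the first trial of 3 gels and near the same level in the other 5 libraries (log2 change -2.22, standard error 0.45, adjusted p = 0.0115), and the change in the stiff IPN was called different from that in the other gels (adjusted p = 0.00247). TSC22D3 was not called when any pair but that of the stiff IPN was left out (adjusted p up to 0.238). KLF9 was more even, from 949, 582, 817 and 1144 to 265, 285, 279 and 378 (-1.50, standard error 0.14, adjusted p = 0.00171), and ZBTB16 fell by 0.85 on the log2 scale (adjusted p = 0.00584), both called without each gel. FKBP5, a chaperone that is a standard marker of receptor activity, had 14233, 11965, 10919 and 11473 normalized counts in replicate 1 and 13958, 8945, 12357 and 13332 in replicate 2, lower in both IPNs and higher in both collagen gels (-0.01, standard error 0.13, adjusted p = 0.952). KLF9 and TSC22D3 are also known FOXO targets, so the lists are not independent of each other.

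**Figure D4:**
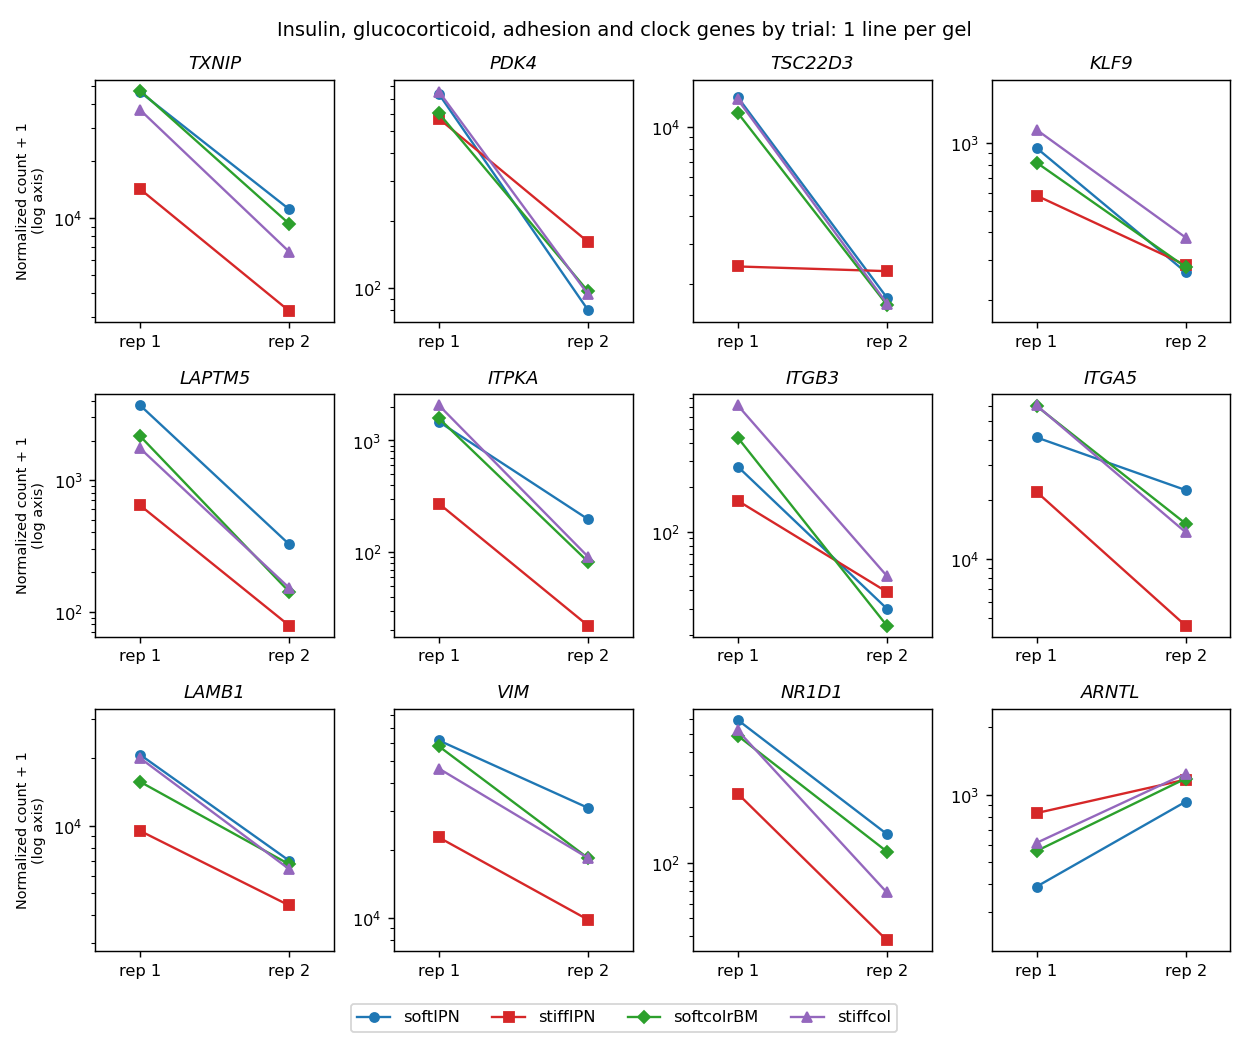
Normalized counts plus 1 (log axis) in replicate 1 and replicate 2 of 12 genes of the insulin, glucocorticoid, adhesion and clock groups, with 1 line per gel. TXNIP falls in parallel in the 4 gels, TSC22D3 falls in 3 gels and stays level in the stiff IPN (2392 to 2280), and ARNTL is the 1 gene shown that rises.

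Most basal and stress keratins were higher in replicate 2. Of 11 tested, 7 were called higher (63.6%, beside 12.7% of all genes) and 2 lower (18.2%, beside 14.4%). The median was 0.97 and lay between 0.77 and 1.15 in single gels. The 13 basal mammary markers, which include KRT5, KRT14 and KRT17, had 5 higher (38.5%) and 4 lower (30.8%), with a median of 0.01. KRT5 had 19940, 15259, 14504 and 7417 normalized counts in replicate 1 and 44022, 38963, 32735 and 24369 in replicate 2 (log2 change 1.35, standard error 0.13, adjusted p = 0.00168). Its partner KRT14 rose from 2003, 3555, 1488 and 839 to 7964, 7848, 7616 and 4034 (1.94, standard error 0.19, adjusted p = 0.00178). The trials did not overlap in either gene. KRT17, a keratin of injured and proliferating epithelium, rose from 5552, 19555, 2883 and 3049 to 18767, 71907, 7944 and 13097 (1.80, standard error 0.13, adjusted p = 0.000721). Here the stiff IPN was above the other gels in each trial, and the rise was of like size in every gel. KRT6B rose by 2.58 and KRT6A by 0.97 (adjusted p = 0.000237 and 0.00246), and as these paralogs share sequence their levels are uncertain. The hair keratin KRT81 fell by 0.90 on the log2 scale (adjusted p = 0.0291), and the simple keratin KRT7 by 0.58 (adjusted p = 0.0445). The separate list of luminal and simple keratins had 0 higher and 1 lower of 5 (20%, beside 14.4% of all genes). Neither KRT81 nor KRT7 kept its call when 1 of the 3 gels other than the stiff IPN was left out (adjusted p up to 0.121 and 0.193). KRT5, KRT14, KRT17, KRT6A and KRT6B kept theirs.

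Of 18 cornified envelope genes, the products of late keratinocyte differentiation, 7 were called higher (38.9%) and 2 lower (11.1%). These shares stand beside 12.7% and 14.4% of all genes, and the median was 0.96. That median was 0.31 over genes with at least 10 in all 8 libraries, 0.62 in the collagen gels alone and 0.61 in the IPNs alone. Involucrin (IVL) rose from 42, 190, 103 and 36 to 126, 401, 245 and 196 (1.57, standard error 0.23, adjusted p = 0.00479), with overlap between trials because the stiff IPN held most in both. The linker proteins PPL and SCEL fell by 1.12 and 1.47 on the log2 scale (adjusted p = 0.00815 and 0.0106). Both lost their calls without the soft IPN pair (adjusted p = 0.0587 for PPL, up to 0.0698 for SCEL over 3 pairs). Among protease inhibitors, PI3 rose by 1.59 (adjusted p = 0.00964), SERPINB8 by 1.36 (adjusted p = 0.00535) and SLPI by 0.55 (adjusted p = 0.00882, and 0.0548 without the stiff col pair), while SERPINB1 fell by 1.01 (adjusted p = 0.00212).

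Among adhesion and matrix genes, several lists had more lower than higher calls. Of 17 integrins, 7 were called lower (41.2%, beside 14.4% of all genes) and 2 higher (11.8%, beside 12.7%), with a median of -0.51. ITGB3 (hg19 chromosome 17, 45331193 to 45391109), the beta subunit of the vitronectin receptor, stood at 275, 161, 433 and 717 normalized counts in replicate 1 and 29, 38, 22 and 49 in replicate 2. It was the third largest fall among the genes named by size, at -3.33 (standard error 0.33, adjusted p = 0.00178), with no overlap. ITGA5, the alpha subunit of the fibronectin receptor, fell from 41410, 21889, 59791 and 60270 to 22332, 4560, 15080 and 13618 (-1.82, standard error 0.22, adjusted p = 0.00255). The collagen-binding subunits ITGA10 and ITGA1 fell by 1.46 and 0.98 on the log2 scale (adjusted p = 0.00155 and 0.00378). The subunits that rose were ITGA6, part of the laminin receptors, by 0.70 and ITGB6 by 0.75 (adjusted p = 0.02 and 0.013), while ITGB4, the partner of ITGA6 in hemidesmosomes, fell by 0.91 (adjusted p = 0.00852). ITGA6 was not called without the soft IPN, soft col:rBM or stiff col pair (adjusted p up to 0.0935), nor ITGB6 without the soft IPN pair (adjusted p = 0.0532).

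Of 17 laminin and hemidesmosome genes, which include ITGA6 and ITGB4, 7 were called lower (41.2%, beside 14.4% of all genes) and 2 higher. Their median was -0.40. LAMB1 fell from 20703, 9483, 15689 and 19997 to 6982, 4414, 6730 and 6402 (-1.38, standard error 0.12, adjusted p = 0.00155), with no overlap, and LAMA3 of laminin-332 fell by 0.80 (adjusted p = 0.00805). Of 19 genes of fibronectin, fibulins and collagen-modifying enzymes, 9 were called lower (47.4%, beside 14.4% of all genes) and 0 higher. Their median was -0.70, and it was -0.04 in soft IPNs and between -0.73 and -0.98 in the other gels. FN1 went from 11610, 7577, 28969 and 57569 to 9691, 3936, 11569 and 23828 (-0.95, standard error 0.18, adjusted p = 0.00909), lower in each gel and least so in the soft IPN. P4HA1, a prolyl hydroxylase of collagen, fell by 1.41 (adjusted p = 0.000687), with a standard error of 0.09. Of 18 cadherins and EMT genes, 6 were called lower (33.3%, beside 14.4% of all genes) and 1 higher, with a median of -0.41. The mesenchymal filament VIM fell from 61638, 22798, 58049 and 46195 to 30868, 9804, 18444 and 18460 (-1.30, standard error 0.13, adjusted p = 0.00178) and the factor TWIST1 by 1.56 (adjusted p = 0.00246). E-cadherin (CDH1) was not called (0.29, adjusted p = 0.118). TNC, a matrix protein of healing tissue, rose from 41, 194, 32 and 39 to 191, 1118, 127 and 241, against the direction of the other matrix genes named here (2.32, standard error 0.17, adjusted p = 0.000848). FN1, LAMB1, LAMA3, P4HA1, VIM, TWIST1, TNC, ITGB3, ITGA5, ITGA10, ITGA1 and ITGB4 were called without each gel in turn. Counts in the other lists of this kind were 3 higher (21.4%) and 6 lower (42.9%) of 14 matricellular genes (median -0.37). Collagens had 0 higher and 5 lower (23.8%) of 21 (median -0.13), and desmosomes 3 higher (27.3%) and 0 lower of 11 (median 0.18). Tight junctions and claudins had 1 higher (5.56%) and 2 lower (11.1%) of 18, with a median of -0.22. Matrix metalloproteinases and inhibitors had 1 higher (4.35%) and 3 lower (13%) of 23, with a median of -0.10. Both of these lists were called less often than all genes in each direction (12.7% higher and 14.4% lower). Without the stiff IPN pair 1 tight junction or claudin gene was higher and 8 were lower.

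Among smaller shifts, 12 of 36 proteasome subunits were called higher (33.3%, beside 12.7% of all genes) and 0 lower (median 0.24). Of 23 heat shock chaperones, 10 were called higher (43.5%) and 1 lower (median 0.37). Without the stiff IPN pair 8 of these chaperones were higher and 5 lower, with a median of 0.23. Of 26 p53 targets, 12 were called higher (46.2%) and 2 lower (median 0.31). PSMD1, a scaffold of the regulatory particle, rose from 1288, 1987, 1310 and 1578 to 2127, 2674, 2119 and 2449 (0.62, standard error 0.10, adjusted p = 0.00565). HSP90AA1 rose by 0.61 (adjusted p = 0.00872, up to 0.0553 without the soft col:rBM or the stiff col pair). Of p53 targets, BTG2, an antiproliferative gene, rose from 630, 449, 365 and 339 to 983, 920, 854 and 782 (1.03, standard error 0.13, adjusted p = 0.00289) and the DNA damage sensor DDB2 by 0.95 (adjusted p = 0.00678), both called without each gel. CDKN1A and MDM2, the targets most often taken as readouts of p53, were not called (0.03 and 0.26, adjusted p = 0.937 and 0.14), and CDKN1A rose in the stiff IPN alone, from 4135 to 7513. GDF15 fell by 0.78 on the log2 scale (adjusted p = 0.0145, up to 0.0692 without the soft IPN or the stiff col pair). Lists with a smaller called share than all genes in both directions included respiratory chain subunits (4 higher and 4 lower of 77, and 6 and 14 without the stiff IPN pair), mitochondrial ribosomal proteins (8 and 5 of 76, and 17 and 14 without the stiff IPN pair) and cholesterol genes (0 and 1 of 24, and 0 and 11 without the stiff IPN pair). Of 27 YAP and TAZ targets, 5 were called higher (18.5%) and 6 lower (22.2%), beside 12.7% and 14.4% of all genes, with a median of -0.04.

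The largest single changes named by size included genes outside these lists. The falls were led by ITPKA (hg19 chromosome 15, 41785591 to 41795749), a kinase of inositol trisphosphate that bundles actin, which went from 1467, 271, 1575 and 2060 to 196, 21, 81 and 90 (-3.82, standard error 0.25, adjusted p = 0.000687). LAPTM5 (chromosome 1, 31205316 to 31230621), a lysosomal membrane protein, followed, from 3706, 641, 2159 and 1742 to 323, 77, 140 and 150 (-3.51, standard error 0.15, adjusted p = 0.000133). In both the stiff IPN was the lowest library of each trial, and the fall was of like size there. N4BP2L1, CXCR4, the chemokine receptor, IL1RL1, the receptor of interleukin-33, LOC101926975, LEMD1 and RGCC fell by between 2.59 and 2.84 on the log2 scale. The rises were led by GPR115 (chromosome 6, 47653600 to 47689757), an adhesion receptor, from 12, 72, 17 and 12 to 107, 316, 155 and 180 (3.02, standard error 0.28, adjusted p = 0.00161). The carboxypeptidase CPA4, the corepressor HR, the transcription factor MYBL2, which acts in cycling cells, and GDAP1, a mitochondrial protein, rose by between 2.05 and 2.74. MYBL2 was not called without the soft col:rBM or the stiff col pair (adjusted p up to 0.0719). HNRNPA1P33 rose by 2.68, and as a processed pseudogene it may hold reads of HNRNPA1. LAPTM5 and CXCR4 are also expressed by leukocytes, whose part in these falls was not tested. Of the 12 immune markers CD68 and CD14 fell by 1.74 and 1.17 (adjusted p = 0.00178 and 0.00466), 2 others were not called, and 8 were under 10 in every library. The summed level of the immune list was 1814 to 5827 normalized counts in replicate 1 and 757 to 2668 in replicate 2, and PTPRC, the marker that leukocytes share, was at 0 in every library.

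**Figure D5:**
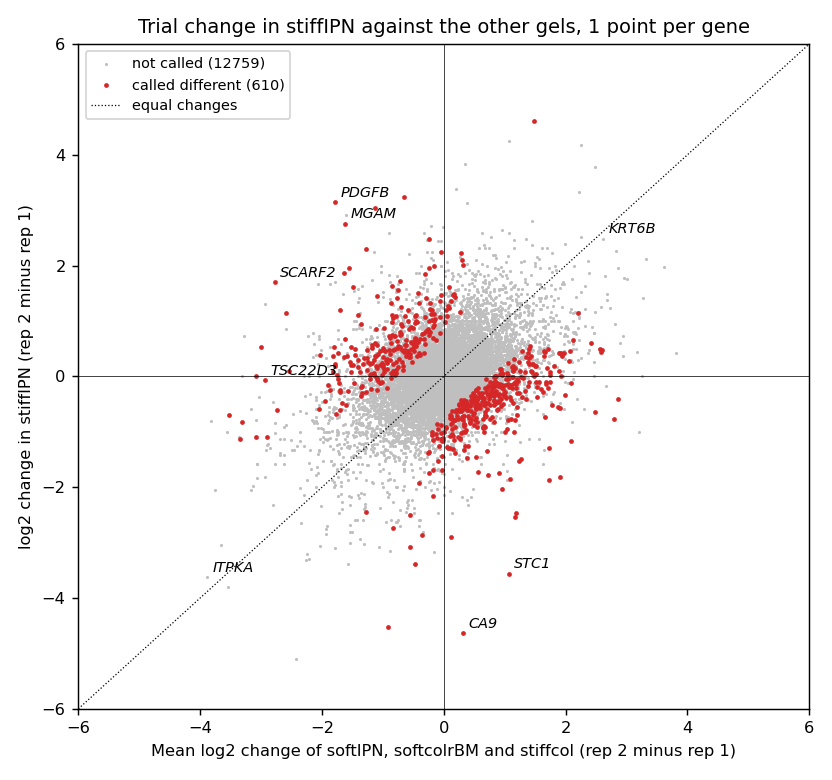
Log2 change from replicate 1 to replicate 2 in the stiff IPN (vertical axis) against the mean change of the other 3 gels (horizontal axis), 1 point per gene tested, with the 610 genes whose change was called different in red. TSC22D3 lies near 0 on the vertical axis and far left, ITPKA and KRT6B lie near the line of equal changes, and CA9 and STC1 lie far below it.

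The 5 genes with the largest called difference between the stiff IPN and the other gels were CA9, PDGFB, STC1, SCARF2 and MGAM. CA9, a carbonic anhydrase induced by hypoxia, went from 2431, 918, 1408 and 894 to 4770, 36, 1480 and 837, so that the stiff IPN of replicate 2 was far below every other library. The change in the stiff IPN minus that in the other gels was -4.95 (standard error 0.37, adjusted p = 0.00348). STC1, another hypoxia-induced gene, went from 964, 1076, 940 and 979 to 3370, 90, 1540 and 1566 (difference -4.63, standard error 0.40, adjusted p = 0.00752). Over 38 genes of hypoxia and glycolysis the median change was -0.48 in the stiff IPN, 0.83 in the soft IPN and 0.22 and 0.23 in the collagen gels. Of the 38, 15 were called different in the stiff IPN, beside 4.56% of all genes tested. The growth factor PDGFB went the other way, from 19, 11, 12 and 14 to 7, 105, 3 and 2 (4.92, standard error 0.73, adjusted p = 0.017). SCARF2 and MGAM, with at most 44 normalized counts in any library, differed by 4.48 and 4.37 (adjusted p = 0.0476 and 0.0157). With no moderation by the trend of the variance, or with no filter on low values, 0 genes were called in this comparison, and the cause was not tested. Without the soft IPN, soft col:rBM or stiff col pair the count was 4292, 41 and 360.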

How the data were processed

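RNA of MCF10A cells from 4 gels, with 2 libraries per gel, was sequenced as paired reads. Per the submitters' processing notes, the authors used Trim Galore 0.3.3, TopHat2 2.0.13 (the methods name Bowtie2), SAMtools 1.1, HTSeq, DESeq2 and R 3.2.0 with hg19, and removed multimapped reads. The deposited values are a signal of whole numbers, read counts per gene times 1 factor per library, rounded. Reads were estimated from the steps between values. Count tests were planned but not run, since factors below 1 merge read numbers.

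Genes that reached 10 in 2 or more libraries were tested as log2(value + 1) with limma 3.58.1 (R 4.3.3, trend, robust with statmod 1.5.0), with gel and trial as terms, and called at a Benjamini-Hochberg adjusted p under 0.05. Pairing is within gel. The labels do not say that a number marks a shared batch, and trial changes of the 6 pairs of gels correlated (r = 0.28 to 0.82). The steps were tested on simulated data. Contrasts of 1 gel with the others, clock genes and counts without the stiff IPN pair were added after the data were seen.

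The comparison and lists were chosen with earlier results of these data known. Named genes are the 12 largest rises and falls among called genes without overlap, with 1 sign in all gels and a mean of at least 50 in the higher trial, the 3 largest called members per list, central uncalled members and the 5 largest differences per interaction. Further members were chosen after their values were seen, and a few genes are not reported here. Promoters came from RefSeq. Alternatives covered scaling, filters, pseudocounts, moderation, pairing, gels left out, gene length and GC content.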

Additional observations from a re-analysis of the deposited data

Results flagged for a closer look

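In 6 of 53 groups with at least 10 tested genes, the median change of 1 gel was set apart from those of the other 3, relative to the range of all 4. The limit was Dixon's for 4 values (gap over range), which chance passes in about 1 in 20 groups. The groups were the gene lists, the clock genes chosen after values were seen, and the set of all genes tested. In the stiff IPN the median was 0.159 for DNA replication genes against 1.19 to 1.37 elsewhere, -0.4 for mitosis genes against 0.514 to 0.601, and 0.121 for lysosome and autophagy genes against -0.402 to -0.341. In the soft IPN it was 0.174 for matrix metalloproteinases and their inhibitors against -0.282 to -0.222, and -0.302 for nuclear-retained and splicing-regulated transcripts against 0.216 to 0.25. In the stiff col gel it was 0.182 for desmosome genes against 0.0958 to 0.108, a small gap that passed because the other 3 medians lay close together.

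The trial change of 610 genes was called different in the stiff IPN from that in the other gels by limma's interaction term. The largest differences were -4.95 for CA9, 4.92 for PDGFB, -4.63 for STC1, 4.48 for SCARF2 and 4.37 for MGAM, on the log2 scale. Stiff IPN replicate 2 was also the library with the fewest estimated reads (13065376), and the part of depth in these differences was not tested.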

How the results depend on the processing

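The 3619 genes called between trials stayed within 1.5 times that number under every other scaling, filter, pseudocount and variance model tried, and with gene length and GC content corrected in the fit with the replicate block (4340). With no replicate block, 2118 genes were called (986 higher, 1132 lower). In the IPN gels alone 91 were called (31 higher, 60 lower) and in the collagen gels alone 7630 (3731 higher, 3899 lower). With each gel left out the count ran from 1215 to 5833, that of higher genes from 495 to 2827 and that of lower genes from 709 to 3006. The highest values came without the stiff IPN pair. The trial's share of the sum of squares, 29.5%, was 78.2% in the collagen gels alone and ran from 26.7% to 52.0% with each gel left out. Genes with a different trial change between collagen gels and IPNs numbered 0, and from 0 to 4292 with each gel left out (4292 without the soft IPN pair and 1234 without the stiff IPN pair). Between stiff and soft gels the count of 0 became 2 with no filter and ran from 0 to 360 with each gel left out, 360 being without the stiff col pair. For the stiff IPN against the other gels, the 610 genes became 0 with no filter and 0 without trend and robust moderation, and ran from 41 to 4292 with each other gel left out. Leaving out a gel leaves single pairs in an arm, which are assumed to vary like the others. Without the soft IPN pair, the contrast of collagen gels with IPNs is the same as that of the stiff IPN with the other gels. Without the stiff col pair, the contrast of stiff with soft gels is also that of the stiff IPN with the other gels. These counts are therefore not separate results on matrix or stiffness. Of 240 genes named and called between trials, 90 lost their call without the soft IPN pair, 2 without the stiff IPN pair, 84 without the soft col:rBM pair and 104 without the stiff col pair, 113 kept it in all 4 fits, and 0 changed sign. Signs turned for 3 genes that were not called: ATF3 in IPN gels alone (0.36), FKBP5 in collagen gels alone (0.20) and without the stiff IPN pair (0.12, range -0.0898 to 0.12), and CDKN1A in collagen gels alone (-0.30) and without the stiff IPN pair (-0.25, range -0.25 to 0.17). Apart from fewer samples in the fits that leave out gels, the cause was not tested. The edgeR and DESeq2 alternatives were not run, since the values are not read counts. Genes near 3 reads (2.41 to 3.73 normalized counts) are limited by depth.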

Other observations

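Circadian clock genes, a group chosen after NR1D1 was seen among the falls and so given as values with no test of the list, were mostly lower in replicate 2. Of 18 tested, 10 were called lower and 1 higher, beside 14.4% and 12.7% of all genes, with a median of -0.69. NR1D1, a repressor that acts in the clock's loop, had 593, 236, 487 and 520 normalized counts in replicate 1 and 142, 37, 114 and 68 in replicate 2, a log2 change of -2.42 (standard error 0.18, adjusted p = 0.000862, limma). Its relative NR1D2 fell by 1.59 (adjusted p = 0.00161). ARNTL (BMAL1), which NR1D1 is known to repress, went the opposite way, from 389, 828, 561 and 610 to 931, 1168, 1180 and 1242 (0.96, standard error 0.14, adjusted p = 0.00437). These 3 genes were called without each gel and their trials did not overlap. The output genes DBP and TEF fell by 2.29 and 1.92 (adjusted p = 0.00832 and 0.00734), and were at 0.0519 and 0.051 without the soft IPN pair. PER2 was not called (-0.58, adjusted p = 0.22). The hour of harvest is not given in the sources used here, and its part in these changes was not tested.

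Among splicing factors SRSF6 rose by 1.16 and TRA2A by 1.02 (adjusted p = 0.00205 and 0.00182), both called without each gel, while the host RNAs of small nucleolar RNAs GAS5 and SNHG8 fell by 0.55 and 0.66 on the log2 scale (adjusted p = 0.00822 and 0.00958, up to 0.0547 and 0.0521 with 1 gel left out). Of 35 lysosome and autophagy genes, 11 were called lower (31.4%, beside 14.4% of all genes) and 6 higher (17.1%, beside 12.7%), and without the stiff IPN pair 19 were lower and 6 higher. The protease CTSB fell by 1.16 (adjusted p = 0.00269) and the protease CTSD rose by 0.65 (adjusted p = 0.00516), both called without each gel.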
